A study of Homo sapiens with 15 samples.

Results

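The genes described here are those of YAP (YAP1), TAZ (WWTR1), their DNA-binding partner TEAD1, and 7 genes known as their targets, CCN1, CCN2, ANKRD1, AMOTL2, AJUBA, LATS2 and PTPN14. They were taken from a fixed list of symbols together with every probe set that names only that gene, which gave 10 of 18244 genes and 30 of 45277 probe sets naming 1 gene. The study profiled total RNA of 5 established human neuroblastoma lines under a title on MYCN, enhancers and transcriptional amplification, 3 arrays a line: SK-N-AS, then SH-SY5Y, NGP, BE(2)-C and KELLY as the lines it is set against. All lines were cultured in DMEM with 10% FBS, with no treatment or genetic change given in the labels. Cells were counted before RNA isolation, the lysate received ERCC spike-in RNA, and labelling used 100 ng of total RNA with in vitro transcription from the 3' end. From general knowledge NGP, BE(2)-C and KELLY carry amplified MYCN and SK-N-AS and SH-SY5Y do not, and SH-SY5Y and BE(2)-C are cloned sublines. Each line stands for itself, so a line and whatever distinguishes it cannot be told apart.

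YAP and TAZ are co-activators without a DNA-binding domain of their own. In the Hippo pathway the kinases encoded by STK3 and STK4, with the scaffold SAV1, activate the LATS kinases, which phosphorylate YAP and TAZ and keep them out of the nucleus. When that phosphorylation is low, YAP and TAZ enter the nucleus, bind TEAD factors at the sequence GGAATG and switch on genes of the matrix, the cytoskeleton and adhesion, among them several inhibitors of YAP itself. In neuroblastoma this activity is known from the mesenchymal, less neuronal cell state. The arrays measured transcripts, and neither the phosphorylation nor the location of the proteins.

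The TEAD motif was searched on both strands, as GGAATG and its reverse complement CATTCC, in the 250 bases before each start in the RefSeq promoter table of GRCh38.p14. It had at least 1 match in 11.9% of 35116 promoters, at least 2 in 0.928% and at least 3 in 0.0797%. The table held 8 of the 10 genes with 11 promoters, and 6 of these 11 had a match. CCN1 and TEAD1 had no entry. CCN2 had 3 matches, 169, 104 and 95 bases before its start, and ANKRD1 had 2, at 220 and 128 bases. YAP1 had 1 at 162 bases and AJUBA 1 at 59 bases, while AMOTL2 had 1 at 69 bases and PTPN14 1 at 200 bases on the other strand. A match says only that these letters are there. The windows of CCN2 (chr6:131951373-131951622, minus strand), ANKRD1 (chr10:90921088-90921337, minus strand) and YAP1 (chr11:102110197-102110446, plus strand) are printed 5′ to 3′ in the direction of the gene, with the motif in capitals, because CCN2 and ANKRD1 held the most matches and YAP1 is the co-activator whose level is described next.
CCN2: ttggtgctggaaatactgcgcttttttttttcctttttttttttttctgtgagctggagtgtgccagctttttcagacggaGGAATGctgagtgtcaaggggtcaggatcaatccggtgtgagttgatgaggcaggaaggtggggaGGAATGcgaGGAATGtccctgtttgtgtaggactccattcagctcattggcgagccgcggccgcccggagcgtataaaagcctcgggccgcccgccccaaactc
ANKRD1: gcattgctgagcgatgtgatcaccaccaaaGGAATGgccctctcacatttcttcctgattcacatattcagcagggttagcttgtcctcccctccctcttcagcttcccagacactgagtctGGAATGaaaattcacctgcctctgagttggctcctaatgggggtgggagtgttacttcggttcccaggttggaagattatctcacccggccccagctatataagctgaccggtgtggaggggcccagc
YAP1: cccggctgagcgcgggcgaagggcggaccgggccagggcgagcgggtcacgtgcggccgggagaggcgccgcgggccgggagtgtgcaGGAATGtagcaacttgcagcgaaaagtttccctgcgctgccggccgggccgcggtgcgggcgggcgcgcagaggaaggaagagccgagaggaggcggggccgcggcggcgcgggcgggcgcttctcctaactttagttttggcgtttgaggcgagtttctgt

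Values are the authors' deposited intensities on a linear scale, and differences are between line means of log2(intensity + 1), the named line minus the other. The deposited arrays did not share a common level, and whether or how they had been scaled is not given. The mean of the array medians was 123 ± 3.23 in SK-N-AS, against 54.4 to 103 in the other lines. The median tested gene accordingly differed by 1.23 between SK-N-AS and SH-SY5Y on the log2 scale, by 0.70 for NGP, 0.16 for BE(2)-C and 0.98 for KELLY. Differences are therefore given on the deposited scale and again after centring each array on its median over the tested genes. Calls required a limma p under 0.05 after Benjamini-Hochberg adjustment and a log2 difference of 1 or more in either direction. The lowest correlation between arrays within a line was 0.993 and the highest between lines 0.892. The gap between the 3' and 5' control probe sets of ACTB, a sign of RNA integrity, was 0.71 ± 0.06 on the log2 scale in SK-N-AS, against 0.97 ± 0.07 to 1.23 ± 0.08 elsewhere (SD, n = 3 each). That of GAPDH was 0.19 ± 0.05 in SK-N-AS, against 0.18 ± 0.02 in BE(2)-C up to 0.35 ± 0.03 in SH-SY5Y, and the part of either in the results was not tested. The labels do not say that the 3 arrays of a line came from separate cultures, so p-values measure only the spread between these arrays, which may be technical. In RNA of a whole culture, fewer cells with a transcript and less of it per cell cannot be told apart.

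YAP1 was bright in SK-N-AS and dim in the 4 other lines. Its probe set with the highest mean on the log2 scale read 1017, 1001 and 1078 in SK-N-AS. It read 18.8, 20.4 and 24.2 in SH-SY5Y, 25.1, 22.5 and 19.1 in NGP, 40.0, 34.5 and 35.9 in BE(2)-C and 22.9, 28.6 and 21.9 in KELLY. The 3 SK-N-AS arrays lay far above all 12 others, with no overlap, and 9 of those 12 lay under 33.8, the 25th percentile of all values, where a reading is near background and a fold understates the change. SK-N-AS was higher by 4.78 ± 0.13 (SE) against BE(2)-C up to 5.55 ± 0.13 against SH-SY5Y on the log2 scale, 27.4 to 46.9 times, with adjusted p of 8.16e-21 or less in limma. After centring, the difference was 4.22 to 4.67. BE(2)-C, next in order, was 0.58 above KELLY on the deposited scale, under the fold set for a call, and KELLY, NGP and SH-SY5Y overlapped. On centred arrays BE(2)-C minus KELLY was -0.34, also not called. The 8 YAP1 probe sets, whose levels cannot be compared with each other, all marked SK-N-AS on both scales: the one with the smallest differences read 147, 142 and 162 in SK-N-AS and between 22.1 and 42.4 in the other lines, and the one with the largest read 1562, 1547 and 1735 in SK-N-AS and between 6.1 and 19.0 in the other lines.

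WWTR1, the gene of TAZ, was also highest in SK-N-AS, but its 3 probe sets gave very different sizes. The probe set with the highest mean on the log2 scale read 322, 283 and 314 in SK-N-AS. It read 72.6, 62.2 and 56.4 in SH-SY5Y, 85.8, 100 and 81.1 in NGP, 115, 133 and 112 in BE(2)-C and 59.5, 67.7 and 63.5 in KELLY. SK-N-AS did not overlap any other line, and BE(2)-C lay above the remaining lines on the deposited scale. On centred arrays the lines other than SK-N-AS spanned only 0.23, and BE(2)-C minus KELLY was -0.01 (limma adjusted p 0.935). On the deposited scale SK-N-AS was higher by 1.35 ± 0.11 to 2.25 ± 0.11 (SE), all called by limma (adjusted p 5.13e-11 or less), while after centring the differences were 0.92 and 0.96 against SH-SY5Y and NGP, under the fold for a call, and 1.15 and 1.14 against BE(2)-C and KELLY. A second probe set read 1315, 1575 and 1529 in SK-N-AS, against 14.8, 24.4 and 21.3 in SH-SY5Y, 13.2, 12.4 and 9.1 in NGP, 47.9, 48.0 and 44.5 in BE(2)-C and 8.4, 10.6 and 14.0 in KELLY. That is at least 4.94 on the deposited log2 scale for SK-N-AS against each other line, and the third probe set behaved alike, with 969 to 1133 in SK-N-AS and 9.8 to 34.6 elsewhere. Both of these probe sets marked SK-N-AS on both scales. The probe set chosen to stand for WWTR1 therefore gave the smallest difference of the 3.

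TEAD1, a DNA-binding partner of both co-activators, was bright in every line and was the member that differed least. It read 3341, 3234 and 3573 in SK-N-AS, against 1227, 1123 and 1337 in SH-SY5Y, 2038, 1943 and 1914 in NGP, 2058, 1922 and 1874 in BE(2)-C and 1120, 1153 and 1209 in KELLY. The SK-N-AS arrays were the highest with no overlap, NGP and BE(2)-C overlapped each other, and so did SH-SY5Y and KELLY. On the deposited scale the difference was 1.46 ± 0.08 against SH-SY5Y and 1.54 ± 0.08 against KELLY (SE), both called, but 0.78 ± 0.08 against NGP and 0.79 ± 0.08 against BE(2)-C, below the fold for a call. After centring it was 0.13 against SH-SY5Y, -0.03 against NGP, 0.59 against BE(2)-C and 0.43 against KELLY, and none was called by limma. Its other probe sets, at 96.3 to 104 and 43.9 to 49.6 in SK-N-AS, differed on centred arrays by -0.91 to 0.16 and were not called higher in SK-N-AS there.

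Of the 3 classical targets, CCN1 and CCN2 encode secreted matricellular proteins and ANKRD1 encodes an ankyrin repeat protein of muscle and stressed cells. CCN1 read 6283, 8007 and 7366 in SK-N-AS, against 145, 142 and 134 in SH-SY5Y, 545, 561 and 548 in NGP, 199, 163 and 182 in BE(2)-C and 56.9, 82.4 and 75.1 in KELLY. SK-N-AS was far above the rest, NGP stood clear of the remaining lines, and no pair of lines overlapped. Against NGP, SK-N-AS was higher by 3.70 ± 0.11 and against KELLY by 6.65 ± 0.11 (SE), 13.0 to 100.3 times, with limma adjusted p of 3.21e-20 or less, and by 2.88 to 5.53 after centring. The second CCN1 probe set gave 6597 to 7186 in SK-N-AS and 75.5 to 430 in the other lines.

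CCN2 read 749, 860 and 844 in SK-N-AS, against 21.1, 21.0 and 17.7 in SH-SY5Y, 21.0, 19.7 and 17.2 in NGP, 37.8, 38.4 and 43.2 in BE(2)-C and 22.9, 20.4 and 26.3 in KELLY. It was higher in SK-N-AS by 4.33 ± 0.13 to 5.34 ± 0.13 (SE, limma adjusted p 3.07e-20 or less) and by 3.96 to 4.52 after centring. The other lines were dim. On the deposited scale BE(2)-C lay above the rest, which overlapped each other. On centred arrays SH-SY5Y, KELLY and BE(2)-C lay close together, at 0.19, 0.17 and 0.02 from the mean of the lines other than SK-N-AS. There SH-SY5Y minus BE(2)-C was 0.17 and BE(2)-C minus KELLY -0.16, neither called (limma adjusted p 0.226 and 0.256). The other CCN2 probe sets also marked SK-N-AS on both scales, with 372 to 422 in SK-N-AS against 16.2 to 40.7 elsewhere and 1306 to 1499 in SK-N-AS against 8.0 to 47.2 elsewhere.

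ANKRD1 was the dimmest classical target and has 1 probe set. It read 80.5, 87.7 and 100.1 in SK-N-AS, against 12.6, 12.4 and 17.9 in SH-SY5Y, 17.9, 12.4 and 14.7 in NGP, 28.4, 23.6 and 39.1 in BE(2)-C and 16.6, 17.8 and 12.9 in KELLY. The SK-N-AS arrays did not overlap the others, and SH-SY5Y, NGP and KELLY overlapped one another. The difference was 1.55 ± 0.19 against BE(2)-C and 2.58 ± 0.19 against SH-SY5Y (SE, limma adjusted p 8.21e-08 or less), and 1.25 to 1.69 on centred arrays.

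The other 4 targets encode proteins that act back on the pathway. AMOTL2 is an angiomotin family protein that binds YAP at junctions, AJUBA a LIM protein that binds and restrains LATS, LATS2 a kinase that phosphorylates YAP and TAZ, and PTPN14 a phosphatase that binds YAP. LATS2 read 826, 767 and 926 in SK-N-AS, against 12.1, 13.3 and 15.8 in SH-SY5Y, 17.8, 19.1 and 15.5 in NGP, 22.4, 22.0 and 16.6 in BE(2)-C and 19.0, 19.2 and 16.6 in KELLY. SK-N-AS alone was bright, and the neighbours in the order of the other 4 lines overlapped. The difference was 5.31 ± 0.14 to 5.84 ± 0.14 (SE, limma adjusted p 5.94e-21 or less), and 4.33 to 5.11 after centring. A second LATS2 probe set gave 257 to 272 in SK-N-AS and 8.9 to 18.0 elsewhere, and the third was dim in all lines, at 37.1 to 42.1 in SK-N-AS and 15.4 to 31.5 elsewhere, and did not mark SK-N-AS.

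AJUBA read 1181, 1223 and 1315 in SK-N-AS, against 55.2, 55.4 and 56.4 in SH-SY5Y, 52.0, 45.7 and 47.8 in NGP, 142, 162 and 134 in BE(2)-C and 59.8, 64.3 and 57.5 in KELLY. SK-N-AS was highest and BE(2)-C next, each without overlap. SK-N-AS was 3.08 ± 0.09 above BE(2)-C and 4.65 ± 0.09 above NGP (SE, limma adjusted p 7.46e-20 or less), and 2.88 to 3.83 higher on centred arrays, and all 3 AJUBA probe sets marked it on both scales.

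AMOTL2 read 453, 457 and 503 in SK-N-AS, against 82.4, 82.4 and 81.6 in SH-SY5Y, 114, 105 and 117 in NGP, 45.7, 39.6 and 41.5 in BE(2)-C and 24.1, 30.3 and 27.0 in KELLY. The 5 lines did not overlap. SK-N-AS was higher by 2.06 ± 0.10 against NGP up to 4.07 ± 0.10 against KELLY (SE, limma adjusted p 1.19e-15 or less), and by 1.17 to 3.25 on centred arrays. The other AMOTL2 probe sets were dimmer, at 67.0 to 74.5 and 60.4 to 76.5 in SK-N-AS and between 20.1 and 57.7 elsewhere, and neither marked SK-N-AS on either scale.

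PTPN14, with 1 probe set, read 67.8, 76.7 and 72.2 in SK-N-AS, against 16.8, 13.7 and 19.7 in SH-SY5Y, 17.0, 14.6 and 13.4 in NGP, 16.9, 19.6 and 16.8 in BE(2)-C and 23.6, 16.4 and 19.4 in KELLY. All 12 arrays of the other lines lay under 33.8 and overlapped, and SK-N-AS was above them. The gene did not pass the filter on dim genes. Without that filter SK-N-AS was higher by 1.83 ± 0.17 to 2.20 ± 0.17 (SE, limma adjusted p 1.04e-10 or less), and after centring by 0.71 to 1.76, called against NGP and BE(2)-C and not against SH-SY5Y and KELLY.

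**Figure D1:**
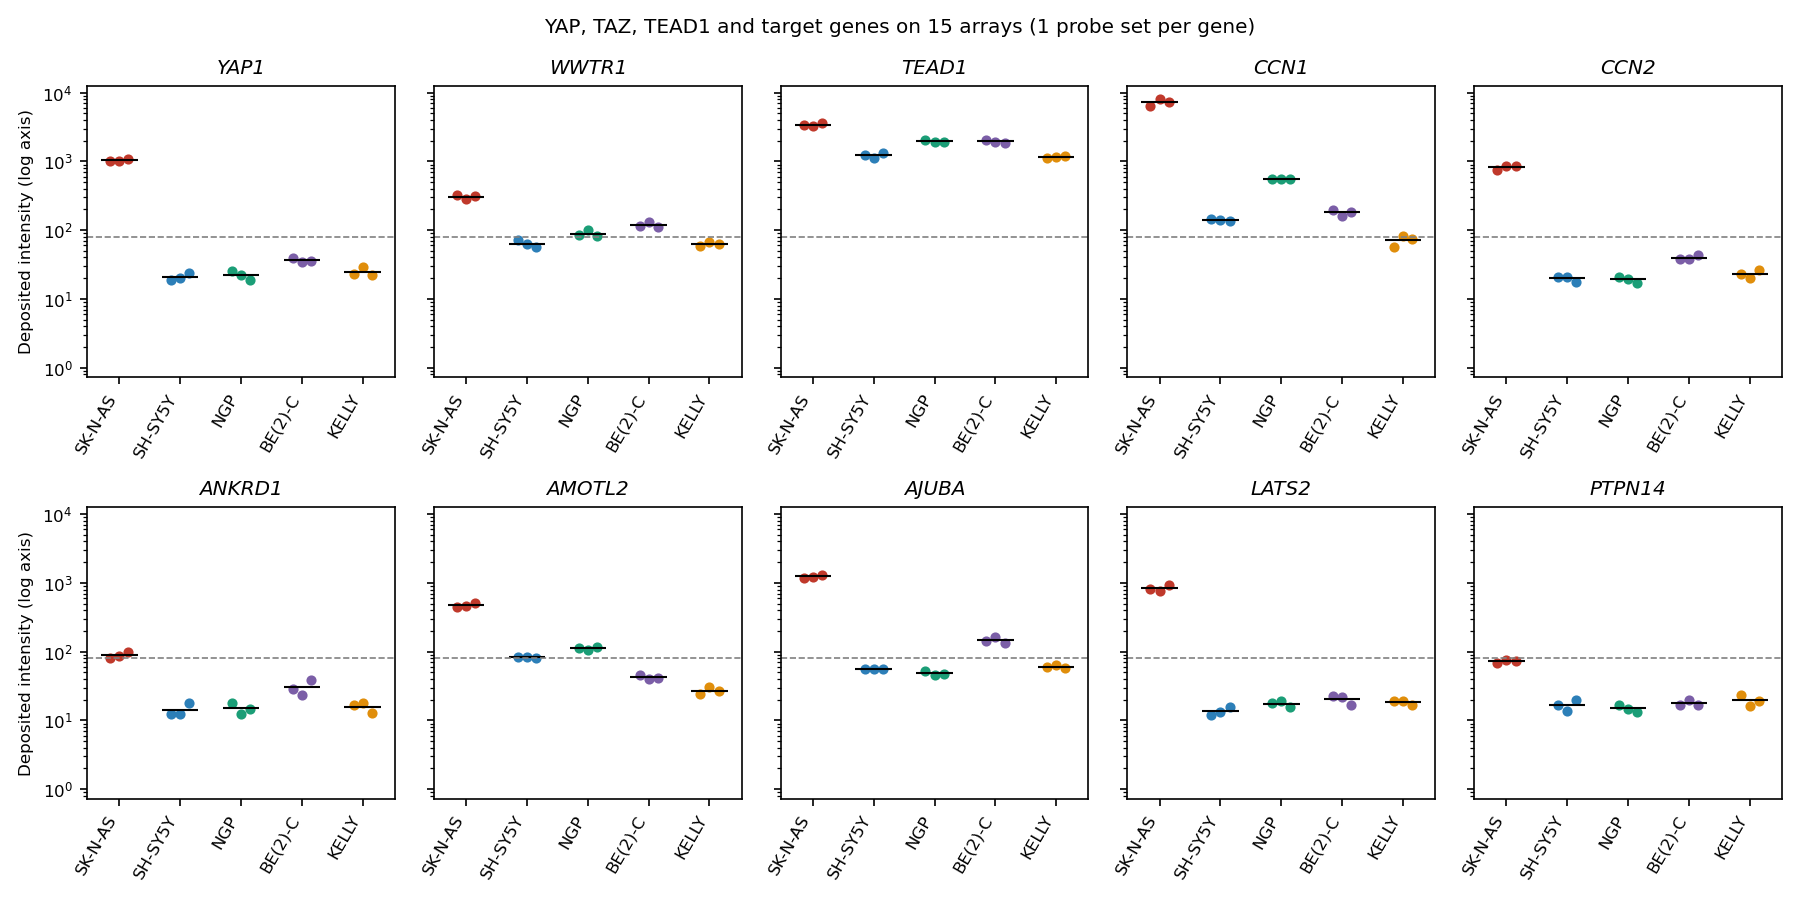
Deposited intensity (log axis) of the 10 genes in 5 lines, 1 probe set per gene; points are the 3 arrays, bars their means and the dashed line the filter at 80.6. SK-N-AS is the highest line in each panel, from 72.3 for PTPN14 to 7219 for CCN1, and TEAD1 is the only gene above the filter in all lines.

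A gene was said to mark SK-N-AS when it was called higher there than in each of the 4 other lines. Among the 12721 genes whose highest line mean reached 80.6, the median of all values, 12.6% did so on the deposited scale and 5.61% on centred arrays. Of the 10 genes 9 passed that filter, and 8 of these 9 marked SK-N-AS on the deposited scale (all but TEAD1) and 7 of 9 on centred arrays (all but TEAD1 and WWTR1). YAP1, CCN2, ANKRD1 and LATS2 passed only through SK-N-AS and so had to differ, and these counts are no support for a difference. With no filter, 9 of all 10 genes marked SK-N-AS on the deposited scale (all but TEAD1), where 9.07% of 18244 genes did, and 7 of 10 on centred arrays (all but TEAD1, WWTR1 and PTPN14), where 3.92% did. Over the 10 genes the median difference without filter was 3.51 against SH-SY5Y, 3.10 against NGP, 3.26 against BE(2)-C and 4.20 against KELLY, beside medians over all genes of 0.93, 0.45, 0.12 and 0.68. On centred arrays these medians were 2.18, 2.29, 3.06 and 3.09, beside -0.40, -0.37, -0.08 and -0.44 over all genes. The 4 comparisons share the SK-N-AS arrays. The genes were chosen with earlier results of these data known, so the counts describe them and test nothing about the list.

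At the level of probe sets and with no filter, 24 of the 30 marked SK-N-AS on the deposited scale, against 9.07% of 47959 probe sets, and 22 of 30 on centred arrays, against 3.7%. The 6 that did not on the deposited scale were the 3 of TEAD1, the 2 dimmer ones of AMOTL2 and the dimmest of LATS2. On centred arrays the first WWTR1 probe set and that of PTPN14 joined them. Probe sets of a gene share its transcripts and are not independent.

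**Figure D2:**
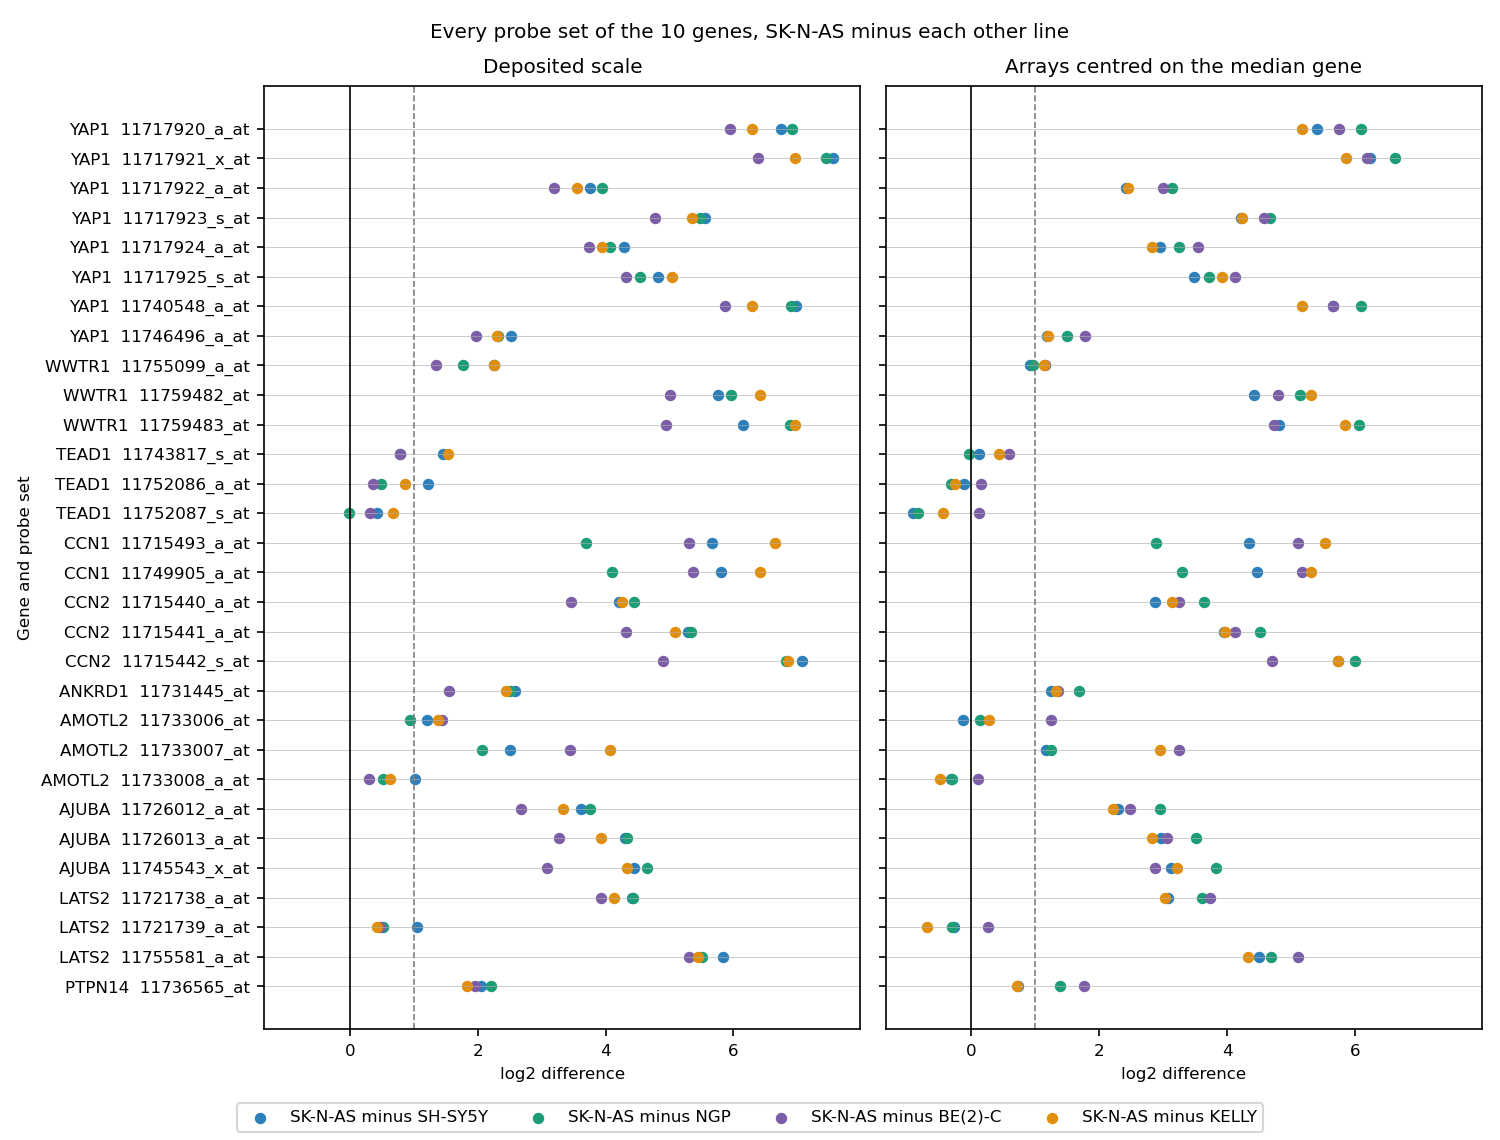
Difference of SK-N-AS minus each other line (log2) for all 30 probe sets, on the deposited scale at left and on centred arrays at right, with no filter; the dashed line is the fold for a call, at 1. All 8 YAP1 probe sets lie beyond it in both panels, the 3 of WWTR1 differ widely in size, and the 3 of TEAD1 lie between -0.91 and 0.59 after centring.

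Among the 4 lines without SK-N-AS the genes did not share an order, and CCN1 and AMOTL2 varied most. On centred arrays the line means of CCN1 spanned 2.65 on the log2 scale and those of AMOTL2 2.08, while WWTR1 spanned 0.23, ANKRD1 0.45, YAP1 0.45, CCN2 0.56, TEAD1 0.63, LATS2 0.78, AJUBA 0.95 and PTPN14 1.05. NGP was highest for CCN1, and SH-SY5Y and NGP were both high for AMOTL2 on the probe set that stands for it. The counts of genes called in either direction, of all 10 and with no filter, are set here beside the share of all 18244 genes called in that pair.

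For SH-SY5Y minus NGP, CCN1 alone was called, lower in SH-SY5Y with a difference of -1.97 on the deposited scale and -1.45 on centred arrays (a count of 1 of 10 on each, beside 16.7% and 12.1% of all genes). For NGP minus KELLY 2 of 10 were called on each scale (11.7% and 10.4% of all genes): CCN1 was higher in NGP by 2.95 on the deposited scale and 2.65 on centred arrays, and AMOTL2 by 2.01 and 1.71. For SH-SY5Y minus KELLY, AMOTL2 was higher in SH-SY5Y by 1.57 on the deposited scale and 1.79 on centred arrays, and CCN1 by 0.98 and 1.20, so that 1 and 2 of 10 were called (11.5% and 10.9% of all genes). In these 3 comparisons CCN1 and AMOTL2 kept their direction on both scales where they were called.

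In pairs with BE(2)-C more of the calls differed between the scales. For NGP minus BE(2)-C, CCN1 was higher in NGP by 1.60 on the deposited scale and 2.22 on centred arrays, and AMOTL2 by 1.39 and 2.00. CCN2 and AJUBA were called lower in NGP on the deposited scale alone, with differences of -1.01 and -1.57 there and -0.39 and -0.95 on centred arrays, so that 4 and 2 of 10 were called (22.5% and 15.1% of all genes). For SH-SY5Y minus BE(2)-C, ANKRD1 and AJUBA were lower in SH-SY5Y on the deposited scale, with differences of -1.03 and -1.37, but differed by 0.10 and -0.24 on centred arrays (limma adjusted p 0.632 and 0.0203), where AMOTL2 was higher in SH-SY5Y by 2.08 and the dim PTPN14 by 1.04. That is 2 of 10 on each scale, beside 40% and 18.4% of all genes. For BE(2)-C minus KELLY, CCN1 was higher in BE(2)-C by 1.35 and AJUBA by 1.25 on the deposited scale, with 0.43 and 0.34 on centred arrays, where PTPN14 was lower in BE(2)-C with a difference of -1.05, so that 2 and 1 of 10 were called (30.2% and 16% of all genes). The shares of members in these pairs ranged on either side of the shares of all genes.

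Another CCN2 probe set placed BE(2)-C above the remaining lines on both scales. It read 11.2, 8.0 and 8.5 in SH-SY5Y, 10.9, 10.2 and 12.3 in NGP, 47.2, 41.2 and 46.5 in BE(2)-C and 11.0, 9.4 and 12.3 in KELLY. The 3 BE(2)-C arrays did not overlap the 9 others, and on centred arrays the differences were -1.04 for SH-SY5Y minus BE(2)-C, -1.31 for NGP minus BE(2)-C and 1.04 for BE(2)-C minus KELLY, each called by limma (adjusted p 1.89e-06 or less). The second WWTR1 probe set described above showed BE(2)-C above NGP and KELLY on centred arrays too, with differences of -1.33 for NGP minus BE(2)-C and 1.11 for BE(2)-C minus KELLY, while SH-SY5Y was not called apart from BE(2)-C there. The readings of SH-SY5Y, NGP and KELLY lay under 33.8 for both probe sets and those of BE(2)-C above it, and both probe sets were singled out after their values were seen.

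**Figure D3:**
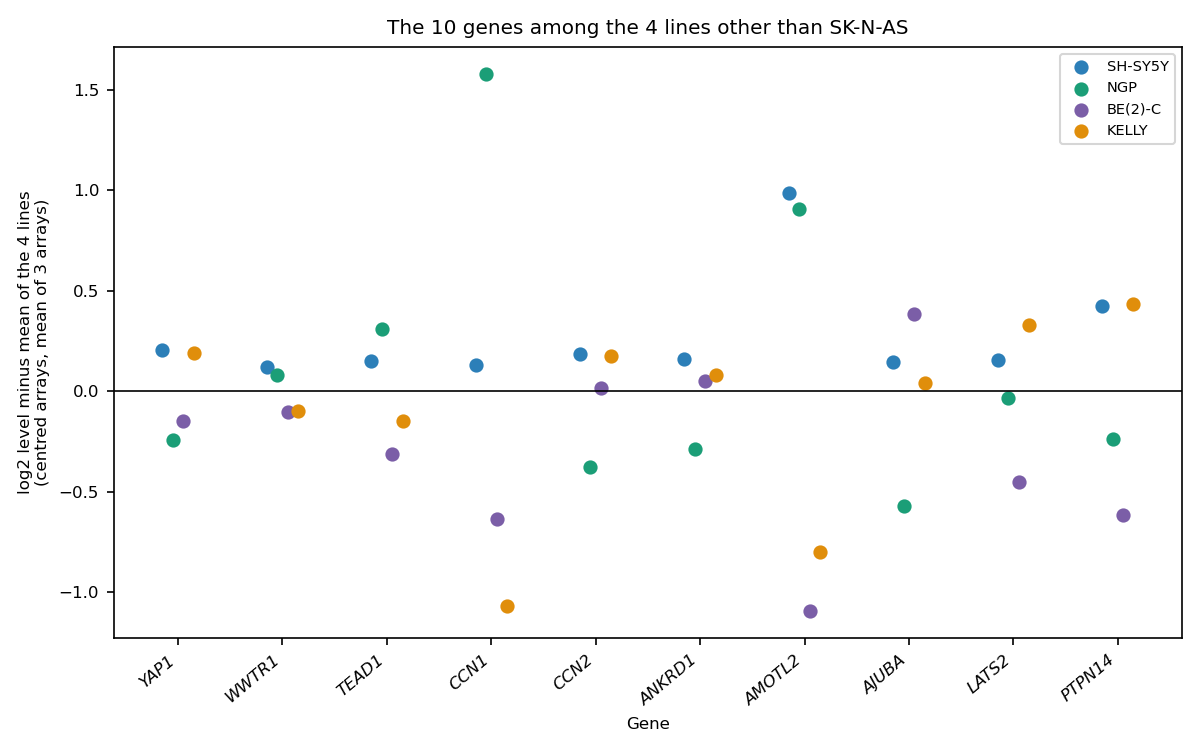
Level of the 10 genes in SH-SY5Y, NGP, BE(2)-C and KELLY (log2, mean of 3 centred arrays) minus the mean of those 4 lines. CCN1 is at 1.58 in NGP and -1.07 in KELLY, and the points of WWTR1 lie within 0.23. AMOTL2, on the 1 probe set drawn, splits SH-SY5Y and NGP from BE(2)-C and KELLY.

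No member separated the MYCN-amplified lines from the others. A gene was counted when NGP, BE(2)-C and KELLY were each called higher, or each lower, than both SK-N-AS and SH-SY5Y. Of the 9 members tested 0 were, by limma on the deposited scale and on centred arrays, beside 1.03% and 1.12% of 12721 genes. With shares this low, a count of 0 of 9 says nothing particular about the members. At an unadjusted p under 0.05 with no fold threshold their count was 0 too, and the share of all genes under that rule is not given.

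The wider pathway was read from lists compiled from general knowledge, and some of these lists hold members. TEAD1, YAP1 and WWTR1 are among the TEAD factors and cofactors, and LATS2 among the kinases and adaptors. AMOTL2, AJUBA and PTPN14 are among the junction and LIM proteins. Counts and medians of these lists include the members and are not separate from the results above. Among the TEAD factors and their cofactors 8 of 10 were tested. TEAD2, YAP1 and WWTR1 marked SK-N-AS on the deposited scale, and YAP1 alone on centred arrays, beside 12.6% and 5.61% of all tested genes. Of these only TEAD2 is not a member. TEAD2 stood at 1222 ± 90.5 in SK-N-AS, followed by 386 ± 31.6 in SH-SY5Y, and at 106 ± 0.695 in BE(2)-C, 54.3 ± 8.50 in NGP and 54.0 ± 6.44 in KELLY (SD, n = 3 each). On centred arrays it was 0.33 above SH-SY5Y and 3.31 to 3.66 above NGP, BE(2)-C and KELLY. TEAD4 was at 520 ± 47.8 in SK-N-AS and 86.6 ± 4.90 in BE(2)-C, 2.37 higher in SK-N-AS on centred arrays, and within -0.13 to 0.10 of SH-SY5Y, NGP and KELLY. TEAD3 differed from the other lines by -0.65 to 0.35 on that scale. VGLL4, a cofactor that competes with YAP for TEAD, was at 366 ± 19.5 in SK-N-AS and between 235 and 499 in the other lines, with centred differences of -1.69 against SH-SY5Y and -0.76 to -0.47 against the rest. VGLL2 was near the filter, and VGLL1 and VGLL3 did not pass it. The median member of this list differed from the mean of the other lines by 1.29 on the deposited scale and 0.43 on centred arrays, beside 0.77 and -0.10 over all tested genes.

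The kinases and adaptors upstream of YAP were also partly higher in SK-N-AS. Of 19 genes 18 were tested, and 6 of them marked SK-N-AS on the deposited scale and 5 on centred arrays. The shares of all tested genes were 12.6% and 5.61%. STK3, an upstream Hippo kinase, was at 755 ± 105 in SK-N-AS and 77.8 to 173 in the other lines, and 1.92 to 2.17 higher after centring. MOB1A, the co-activator of LATS kinases, was at 2902 ± 51.5 in SK-N-AS and 381 to 1066 elsewhere, 1.24 to 1.75 higher. WWC3, a WW domain protein that promotes LATS activity, was at 1208 ± 81.9 in SK-N-AS and 51.8 to 131 elsewhere, 1.86 to 4.32 higher. FRMD6, a FERM domain protein that activates the pathway, was at 1920.5 ± 139 in SK-N-AS and 99.5 to 611 elsewhere, 1.45 to 2.92 higher. LATS2 is the fifth, and the adjusted p in limma on centred arrays was 6.07e-10 or less for each of the 5. TAOK3 was called on the deposited scale alone, with 0.92 to 1.62 after centring. Of their paralogues, STK4 was 0.03 to 1.04 higher in SK-N-AS on centred arrays, MOB1B differed by -0.74 to 0.08, and LATS1 did not pass the filter, at 50.7 ± 0.995 in SK-N-AS and 26.4 to 35.9 elsewhere. WWC2 was 1.62 to 2.98 higher than in SH-SY5Y, NGP and KELLY but 0.10 from BE(2)-C, and WWC1 differed by 2.27 from BE(2)-C and by -1.25 from NGP. On centred arrays the differences of the other upstream genes were 0.65 to 1.03 for SAV1, 0.14 to 0.61 for STK38, 0.08 to 0.64 for STK38L, -0.59 to 0.49 for NF2, -0.05 to 0.41 for TAOK2, -1.59 to 0.41 for MAP4K4, -1.20 to -0.73 for TAOK1 and -1.21 to -0.44 for RASSF1. None of these marked SK-N-AS on either scale. The list's median difference was 1.34 on the deposited scale and 0.47 on centred arrays, beside the medians of 0.77 and -0.10 over all tested genes.

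**Figure D4:**
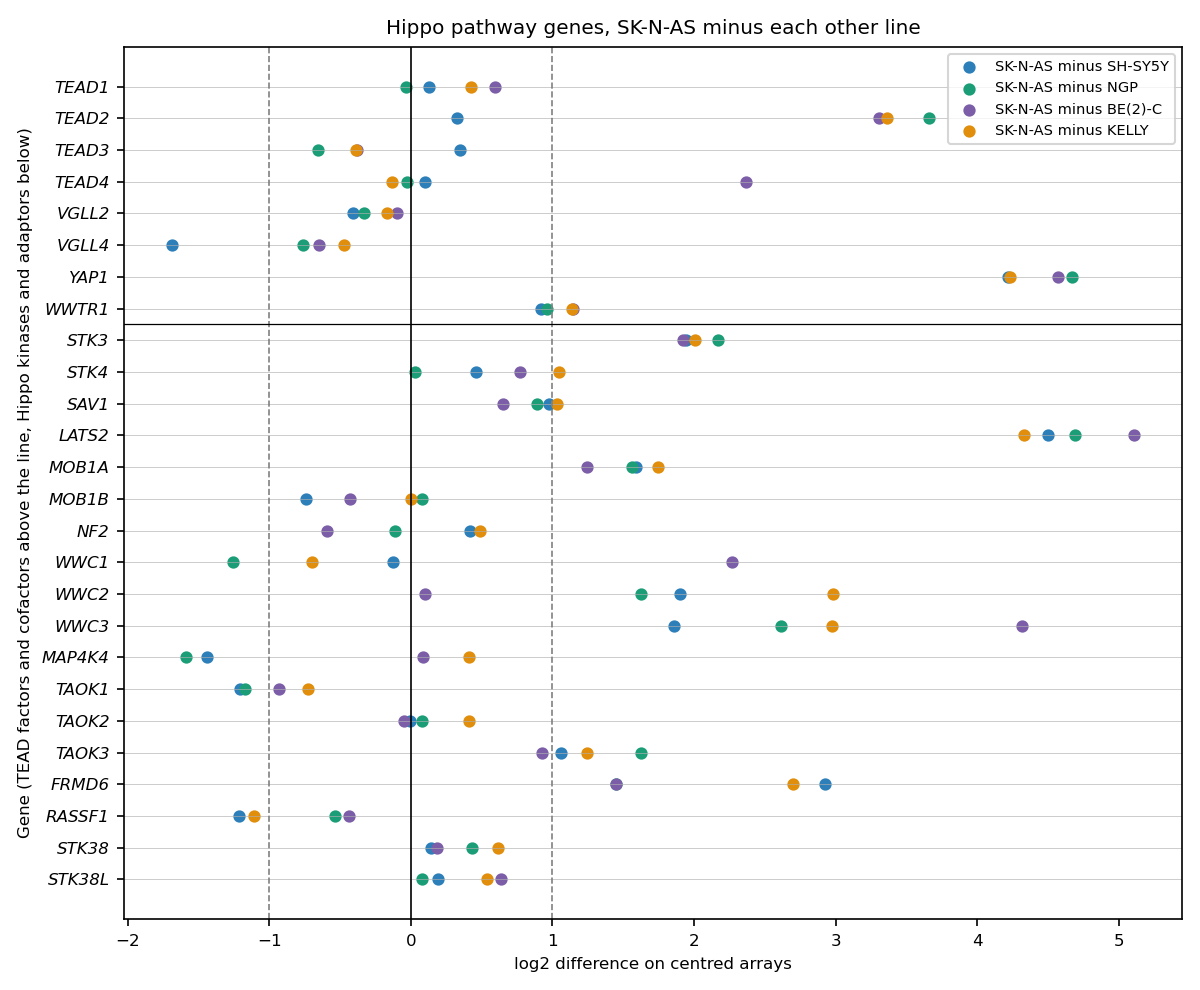
Difference of SK-N-AS minus each other line (log2, centred arrays) for the tested TEAD factors and cofactors, above the line, and Hippo kinases and adaptors, below it; dashed lines mark a difference of 1. YAP1, STK3, LATS2, MOB1A, WWC3 and FRMD6 lie beyond it against all 4 lines, and TEAD2 does against 3.

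Among 16 tested further targets of YAP and TAZ, 7 marked SK-N-AS on the deposited scale and 6 on centred arrays, beside 12.6% and 5.61% of all tested genes. MYOF, AXL and CRIM1 among them passed the filter only through SK-N-AS and so had to differ. By limma 0 were lower there in all 4 comparisons on either scale. At an unadjusted p under 0.05 with no fold threshold the lower counts were 0 on the deposited scale and 3 on centred arrays, IGFBP3, ARHGEF17 and BIRC5, which also pass the adjusted p and differ by less than the fold for a call. The 4 with the largest smallest difference were MYOF, a membrane repair protein, THBS1, a matricellular protein, CCDC80, a matrix protein, and DOCK5, a guanine nucleotide exchange factor. MYOF was at 1063 ± 54.9 in SK-N-AS and 19.8 to 35.2 elsewhere, 4.88 to 5.69 higher on the deposited scale and 3.91 to 4.95 on centred arrays. THBS1 was at 969 ± 71.7 in SK-N-AS and 14.8 to 81.2 elsewhere, 2.74 to 4.61 higher after centring. CCDC80 was at 993 ± 44.7 in SK-N-AS and 12.5 to 116 elsewhere, 2.90 to 5.16 higher after centring, and DOCK5 at 2071 ± 112 in SK-N-AS and 35.8 to 407 elsewhere, 2.14 to 4.50 higher. For both the highest of the other lines was BE(2)-C. The list's median difference was 1.32 on the deposited scale and 0.46 on centred arrays. Of 11 tested junction and LIM proteins that bind LATS or YAP, AMOTL2 and AJUBA alone marked SK-N-AS, on both scales, and both are members. The shares of all tested genes were 12.6% and 5.61%, and the list medians were 1.27 and 0.40.

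AP-1 subunits, whose dimers bind next to TEAD factors at many enhancers, were called in both directions on centred arrays and only higher in SK-N-AS on the deposited scale. FOSL1 and FOSL2 marked SK-N-AS on both scales, FOSL1 having passed the filter only through SK-N-AS. FOSL1 was at 263 ± 22.3 in SK-N-AS and 33.3 to 52.3 elsewhere, 1.61 to 2.12 higher on centred arrays, and FOSL2 at 1111 ± 17.1 in SK-N-AS and 65.4 to 187 elsewhere, 1.49 to 2.74 higher. JUN and FOSB were lower in SK-N-AS than in each other line on centred arrays alone. JUN was at 1036 ± 23.4 in SK-N-AS, at 827 in SH-SY5Y and between 1944 and 6609 elsewhere, 1.01 to 3.49 lower after centring, and FOSB was 1.06 to 1.85 lower. So 2 of 9 subunits were higher by limma on each scale, beside 12.6% and 5.61% of all tested genes. On the deposited scale 0 were lower, also at an unadjusted p under 0.05 with no fold threshold, beside 2.12% of all tested genes. On centred arrays 2 were lower, beside 5.56%, and 4 were at an unadjusted p under 0.05 with no fold threshold. The median difference of the AP-1 list was 0.28 on the deposited scale and -0.59 on centred arrays, beside 0.77 and -0.10 over all tested genes. Of 8 tested genes of the STRIPAK complex, a phosphatase complex that acts on the upstream Hippo kinases, 0 marked SK-N-AS by limma on either scale. Of all tested genes 12.6% and 5.61% were higher there. At an unadjusted p under 0.05 with no fold threshold the counts were 1 higher on the deposited scale, STRIP2, and 2 lower on centred arrays, STRN4 and SIKE1. These pass the adjusted p too, but STRIP2 passed the filter only through SK-N-AS, so its count is no support for a difference. The 2 with the largest mean difference on the deposited scale were MOB4 and STRIP2. MOB4 differed by 1.32 from SH-SY5Y, 1.47 from NGP, -0.22 from BE(2)-C and 1.31 from KELLY, and STRIP2 by 0.61 to 1.48. The median difference of the STRIPAK list was 0.64 on the deposited scale and -0.23 on centred arrays, also below the medians over all tested genes.

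Most adrenergic and mesenchymal markers also set SK-N-AS apart, while the other marker lists were mixed or did not. Of 9 tested adrenergic neuroblastoma markers 6 were lower in SK-N-AS than in each other line on both scales, beside 2.12% and 5.56% of all tested genes. The summed level of the 9 was 13769 to 15428 in SK-N-AS, against 29494 to 58683 over the other lines. CHGA was at 53.3 ± 8.22 in SK-N-AS, against 5858 to 16971 in the other lines. HAND2 and GATA3 were bright in all 5, at 11583 and 1710.0 in SK-N-AS, against 6981 to 11404 and 2267 to 3497 elsewhere. TH was at 225 in SK-N-AS, above 91.1 in SH-SY5Y and 125 in NGP and below 776 in BE(2)-C and 1463 in KELLY. Of 9 tested mesenchymal markers 7 marked SK-N-AS on the deposited scale and 6 on centred arrays, beside 12.6% and 5.61% of all tested genes. The summed level of the list was 47066 to 51392 in SK-N-AS, against 892 to 6046 over the other lines. VIM was at 17794 ± 1163 in SK-N-AS and 156 to 4052 elsewhere, and COL1A2 was dim in every line. FN1 and NOTCH2 did not mark SK-N-AS on either scale. On centred arrays FN1 differed by -0.79 from KELLY up to 3.11 from BE(2)-C, and NOTCH2 by -0.87 from SH-SY5Y up to 0.48 from BE(2)-C. Of the 3 tested epithelial markers KRT8 and KRT18 marked SK-N-AS, while KRT19 was at 106 in SK-N-AS, against 358 in BE(2)-C and 41.2 to 69.4 in the rest, with a difference from BE(2)-C of -1.75 on the deposited scale and -1.95 on centred arrays. EPCAM and CDH1 were dim in all lines, and the summed level of the list was 9605 to 10637 in SK-N-AS, against 180 to 582 over the other lines. All these sums are on the deposited scale and add probe sets whose levels cannot be compared, so bright genes dominate them. In SK-N-AS these were HAND2 for the adrenergic, VIM and COL3A1 (at 17527) for the mesenchymal and KRT18 (at 8602) for the epithelial list. Of the leukocyte markers PTPRC was at 320 ± 24.6 in SK-N-AS and at most 14.7 elsewhere, with CD3E, CD14 and LYZ dim in all lines, and a summed level of 403 to 453 in SK-N-AS, against 79.8 to 159.5 over the other lines. Of 3 tested endothelial and 2 tested Schwann cell markers 0 marked SK-N-AS by limma, and at an unadjusted p under 0.05 with no fold threshold 0 and 1 were higher on the deposited scale and 1 in each list lower on centred arrays. CD44, KRT8, KRT18 and PTPRC passed the filter only through SK-N-AS. Their part in the results above was not tested.

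Over the 15 centred arrays, the genes most like YAP1 by Pearson correlation, among 2780 tested genes whose line means span at least 2, were KRT18 (0.9964), LY6K (0.9958), ANXA1 (0.9955), CXCL8 (0.9947) and SFT2D1 (0.9947). The genes most like the mean of the 9 tested members were MYOF (0.9947), IL24 (0.9943), AMBN (0.9941), IL1B (0.9937) and GBP3 (0.9936). The correlation reached 0.99 for 35 genes with YAP1 and for 17 with the mean. The points are 3 arrays of each of 5 lines and fall into SK-N-AS and the rest, so the values describe the pattern and no p is given. SFT2D1 was at 2942 ± 155 in SK-N-AS and 323 to 654 elsewhere, and KRT18 at 8602 ± 508 in SK-N-AS and 32.7 to 58.1 elsewhere.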

How the data were processed

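The authors deposited intensity values on a linear scale for 15 arrays, and the tool MAS5 appears in the submitters' processing notes. How it corrected background or normalized the arrays, and its version, is not given in the sources used here. Gene names came from GEO's platform annotation: 45277 of 49494 probe sets named 1 gene, 1333 several, 2682 none, and 202 were controls. Probe sets with several genes named nothing here. The number of arrays limits the precision.

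Values were transformed as log2(intensity + 1). For each gene the probe set with the highest mean log2 value was taken, and genes whose highest line mean fell under 80.6 (6.35 on the log2 scale), the median of all values, were left out of the main test. All 30 probe sets of the members were also analysed singly. A limma model (3.58.1, R 4.3.3) with 1 mean per cell line of the labels and an intensity trend was fitted to all arrays, with 10 pairs of lines and Benjamini-Hochberg adjustment over all tested features within a pair. Same-numbered arrays of different lines did not deviate together, so the replicate numbers were not used as pairs.

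Members and lists were chosen with earlier results of these data known. Named genes were all members, all measured TEAD and Hippo kinase genes, up to 4 marking genes per direction of each other list (or the 2 with the largest mean difference), the 5 most alike genes and the markers. The neighbouring genes, the probe sets singled out in BE(2)-C, and AXL, CRIM1, IGFBP3, ARHGEF17, BIRC5, STRN4 and SIKE1 were chosen after their values were seen. Alternatives were the scale of the arrays, the pseudocount, a floor on dim values, the filter, the choice of probe set, the fold threshold, the intensity trend, the replicate number as a block and leaving out each array. Promoter sequences are from RefSeq, GRCh38.p14.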

Additional observations from a re-analysis of the deposited data

How the results depend on the processing

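The 8 members higher in SK-N-AS than in each other line came to 6 to 9 under the alternatives, 6 where a filter at the 75th percentile left fewer genes tested, and the count for the MYCN classes was 0 under each. With the replicate block all counts kept within 1.5 times, 8 members among them, though same-numbered arrays of different lines correlated at -0.227 to 0.234 in their deviations, 5 of 30 pairs over 0.1, so the numbers do not pair them. Readings of YAP1, CCN2, ANKRD1, LATS2 and PTPN14 outside SK-N-AS are near background, which limits what can be said about those lines. The causes of the changes below were not tested.

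Counts in pairs of the other 4 lines moved. The shares of all genes and probe sets called are not given for most of these settings. The counts therefore show only how far they move and are no result about the members. Members called by gene (and probe sets in brackets) were 1 (2) for SH-SY5Y minus NGP, 2 (7) for SH-SY5Y minus BE(2)-C, 1 (1) for SH-SY5Y minus KELLY, 4 (11) for NGP minus BE(2)-C, 2 (3) for NGP minus KELLY and 2 (6) for BE(2)-C minus KELLY. On centred arrays these became 1 (2) for SH-SY5Y minus BE(2)-C, 2 (3) for SH-SY5Y minus KELLY, 2 (5) for NGP minus BE(2)-C and 0 (2) for BE(2)-C minus KELLY, and with centring and no filter, chosen after seeing the data, 2 (3), 2 (6) and 1 (3) for the last 3. Quantile normalization gave 1 (4) for SH-SY5Y minus BE(2)-C, 2 (3) for SH-SY5Y minus KELLY and 0 (3) for BE(2)-C minus KELLY, and equal ERCC medians 2 (2) for SH-SY5Y minus KELLY. A pseudocount of 16 gave 1 (2) for SH-SY5Y minus BE(2)-C and 6 probe sets for NGP minus BE(2)-C, a floor at the 25th percentile 1 (1) for SH-SY5Y minus BE(2)-C, 4 probe sets for NGP minus BE(2)-C and 3 for BE(2)-C minus KELLY, and the filter at the 75th percentile 1 for SH-SY5Y minus BE(2)-C. With no fold threshold, where smaller differences are called in all genes too, the 6 counts were 5 (8), 9 (25), 3 (11), 7 (21), 5 (13) and 8 (19). The mean of all probe sets gave 0 for SH-SY5Y minus KELLY and 1 for NGP minus KELLY, leaving out _s_at and _x_at probe sets 1 for BE(2)-C minus KELLY, and the probe set with the highest linear mean, chosen after seeing the data, 5 for SH-SY5Y minus BE(2)-C and 4 for BE(2)-C minus KELLY. ANKRD1 in SH-SY5Y minus BE(2)-C turned to 0.105 on centred arrays, with or without the filter, where it was not called. Of the lists, TEAD factors and cofactors went to 1 higher in SK-N-AS with centring and with quantile normalization, junction and LIM proteins to 5 with equal ERCC medians, and AP-1 subunits to 2 lower with centring and with quantile normalization.

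Leaving out each array in turn, SH-SY5Y minus BE(2)-C gave 1 to 3 genes and 5 to 8 probe sets, with 1 gene without BE(2)-C replicate 3. SH-SY5Y minus KELLY gave 1 to 2 of each, with 2 genes without SH-SY5Y replicate 3, KELLY replicate 2 or KELLY replicate 3, and 2 probe sets without these or SH-SY5Y replicate 1. NGP minus BE(2)-C gave 3 to 5 genes and 6 to 14 probe sets, with 6 probe sets without NGP replicate 3, and BE(2)-C minus KELLY 2 to 3 genes. All pairs with SK-N-AS, and the 8 members higher there, kept their counts without any array.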

Other observations

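Genes next to the members on the chromosome, chosen after the values were seen, were compared as the 5 tested neighbours on each side. On centred arrays the difference of SK-N-AS minus the mean of the 4 other lines was 4.42 for YAP1, beside a neighbour median of -0.16 (lowest -1.52, highest 3.89). For LATS2 it was 4.66, beside a median of -0.19 and a highest neighbour at 0.42, and for AMOTL2 2.16, beside -0.16 and 0.13. For CCN1 it was 4.46, beside a median of 0.44 and a highest neighbour at 1.96, and for AJUBA 3.26, beside -0.13 and 2.53. For CCN2 it was 4.14, beside a median of -0.03 and a highest neighbour at 3.16, and 3 of its 10 neighbours marked SK-N-AS. ANKRD1 differed by 1.40, less than its highest neighbour at 1.95, with a median of 0.07, and PTPN14 by 1.15, beside -0.19 and 0.87. TEAD1 differed by 0.28, less than its neighbour median of 0.60, and WWTR1 by 1.04, beside a median of 0.43. Their highest neighbours stood at 4.57 and 7.38, and 3 of the 10 neighbours of each marked SK-N-AS. Chromosome gains and losses of the lines were not measured on these arrays.

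The other genes most like YAP1 or the mean of the members were bright in SK-N-AS and dim elsewhere. ANXA1 was at 8898 ± 318 in SK-N-AS and 19.3 to 25.8 in the other lines, CXCL8 at 3290 ± 238 in SK-N-AS and 20.3 to 33.7 elsewhere, and LY6K at 2188 ± 95.3 in SK-N-AS and 26.2 to 45.2 elsewhere (SD, n = 3). IL24 was at 1770 ± 98.6 in SK-N-AS and 31.1 to 42.8 elsewhere, AMBN at 1172 ± 70.4 in SK-N-AS and 27.5 to 36.3 elsewhere, IL1B at 700 ± 72.1 in SK-N-AS and 32.7 to 56.0 elsewhere, and GBP3 at 424 ± 12.7 in SK-N-AS and 9.65 to 14.4 elsewhere.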
